A study of Mus musculus with 2 samples.

Results

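The 9 genes S100a4, S100a6, S100a10, S100a11, S100a13, Anxa1, Anxa2, Anxa3 and Anxa5 were followed across the cell classes of mouse bone marrow in both single-cell libraries of the series. They were picked by symbol, and all 9 were found among the 32286 features counted. One library came from the control genotype, Mx1Cre+/-;Rosa26+/+, and the other, here called MYC, from Mx1Cre+/-;Rosa26LSL-MYC/LSL-MYC. Both genotypes carry 1 copy of the Mx1-Cre transgene, so Cre itself is shared and the loxP-stop-loxP MYC transgene at both Rosa26 alleles is what differs. The Mx1 promoter that drives Cre is inducible by interferon and is not restricted to blood cells, and the labels give no induction schedule, age or sex. The series asked how expression in marrow blood cells differs once MYC is overexpressed in hematopoietic stem cells. Each group holds 1 library and nothing says whether it came from a single animal or a pool, so no difference has a replicate check and no p-value is given.

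S100 proteins are small calcium-binding proteins that work as dimers, mostly by opening a binding face for a partner protein when calcium rises. Annexins bind phospholipid membranes in a calcium-dependent way, and several of them are held in pairs or tetramers by an S100 dimer: S100A10 with annexin A2, S100A11 with annexin A1, and S100A6 with several annexins. In marrow, this family is known above all from neutrophils and monocytes, where S100a8 and S100a9 encode calprotectin, annexin A1 dampens neutrophil recruitment through formyl peptide receptors, and S100A4 marks motile myeloid and lymphoid cells.

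The deposited matrices held 17073 control and 14496 MYC barcodes, and after filters on UMIs (unique molecular identifiers, which count captured RNA molecules), genes, mitochondrial reads and doublets, 14903 and 12540 cells were kept. The median cell had 5343 UMIs in the control library and 6016 in the MYC library. Both libraries had 97 barcodes in common. The feature named MYC, whose sequence is not stated, had 0 UMIs in the control library, a count that allows up to 3, and 289 UMIs (2.84 per 1000000 UMIs) in the MYC library, 153 of them in mature neutrophils, so the library labels were not contradicted. Cells were clustered without the 9 genes among the variable genes, and each cluster was named from marker genes. S100a4 was nevertheless among the 10 leading genes of monocyte cluster 9, and Lgals1, a galectin, was among those of monocyte cluster 13. The cluster called stem or multipotent progenitor was led by Pf4 and Mecom. The macrophage-like cluster was led by C1qb and C1qc but had Vcam1 and Mertk at 0 in its 21 control cells, and is called C1q-led here. At clustering resolutions 0.5 and 2 the cluster with the same leading genes stayed unnamed, with nonclassical monocyte as its best match. At resolution 2 a cluster of 60 control and 35 MYC cells was led by Cd5l and Fcna. Its best match was macrophage, but it stayed unnamed for its low UMI count.

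Levels are given as CPM, the UMIs of a gene per 1000000 UMIs of all cells of that class in that library, with exact 95% Poisson intervals in brackets. The intervals cover counting error only and not the spread between animals. A CPM is a level per unit of RNA, and levels of different genes are not set against each other, since they were not scaled for length or capture. Differences between libraries are log2 ratios of MYC over control with an exact conditional interval. A gene is called higher or lower when the ratio is at least 1.5-fold and its interval excludes equality, among genes whose UMIs in a class summed to 50 or more over both libraries. In all 9 classes with at least 100 cells in each library the median of all tested genes lay below 0 on this scale, between -0.30 and -0.08, so the distance from that median is given beside the main ratios.

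The 5 S100 members lie on mouse chromosome 3 in GRCm38. S100a13 (chr3:90514435-90524581), S100a4 (chr3:90603771-90606045) and S100a6 (chr3:90612882-90624181), all on the plus strand, belong to the cluster that also holds S100a8 and S100a9. S100a11 (chr3:93520488-93526287, plus strand) and S100a10 (chr3:93555080-93564643, plus strand) form a pair 28792 bp apart, which lies 2824766 bp beyond S100a9. Anxa5 lies on the same chromosome (chr3:36448923-36475894, minus strand), while Anxa1 (chr19:20373428-20390944, minus strand), Anxa2 (chr9:69453620-69491795, plus strand) and Anxa3 (chr5:96793339-96845966, plus strand) are spread over other chromosomes. In the GENCODE annotation, exons of S100a4 and Anxa3 overlap the predicted genes Gm42674 and Gm42603 on the same strand, and an exon of Anxa2 overlaps the antisense gene Gm16144. Reads in the same-strand stretches cannot be assigned to one gene with certainty. For Anxa2 this depends on the strand setting of the counting, which is not given. S100a4 and S100a6 are separated only by S100a5, yet their levels over cell classes differed widely, as described below for each.

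RefSeq promoter windows, 250 bases before to 50 after the annotated start, were found for 7 of the 9 genes. Shown here, 5′ to 3′ on the gene's own strand, are the windows of S100a4, whose level was highest in monocytes, S100a6, S100a11 and Anxa1, whose levels were highest in neutrophils, and S100a13, which starts 42 bp from S100a1 on the opposite strand. Capitals mark matches to any of 6 short motifs, searched on both strands.
S100a4 promoter (chr3:90603520-90603819, plus strand): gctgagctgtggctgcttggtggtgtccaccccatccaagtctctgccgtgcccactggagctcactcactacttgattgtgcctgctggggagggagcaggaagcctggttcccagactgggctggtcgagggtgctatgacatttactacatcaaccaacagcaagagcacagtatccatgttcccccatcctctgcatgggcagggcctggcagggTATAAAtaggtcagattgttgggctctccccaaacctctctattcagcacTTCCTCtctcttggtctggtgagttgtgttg
S100a6 promoter (chr3:90612644-90612943, plus strand): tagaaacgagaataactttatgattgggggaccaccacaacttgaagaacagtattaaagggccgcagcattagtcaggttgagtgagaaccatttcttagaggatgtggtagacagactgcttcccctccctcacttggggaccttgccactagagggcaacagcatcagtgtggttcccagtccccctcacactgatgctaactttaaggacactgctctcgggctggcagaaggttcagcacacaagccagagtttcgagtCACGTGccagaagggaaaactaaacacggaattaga
S100a11 promoter (chr3:93520246-93520545, plus strand): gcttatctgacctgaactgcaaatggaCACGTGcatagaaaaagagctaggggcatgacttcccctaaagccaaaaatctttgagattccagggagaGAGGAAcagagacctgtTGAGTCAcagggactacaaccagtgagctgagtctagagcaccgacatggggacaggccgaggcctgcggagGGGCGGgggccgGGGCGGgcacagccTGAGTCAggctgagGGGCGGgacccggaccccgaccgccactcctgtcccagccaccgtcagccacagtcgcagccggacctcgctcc
Anxa1 promoter (chr19:20390622-20390921, minus strand): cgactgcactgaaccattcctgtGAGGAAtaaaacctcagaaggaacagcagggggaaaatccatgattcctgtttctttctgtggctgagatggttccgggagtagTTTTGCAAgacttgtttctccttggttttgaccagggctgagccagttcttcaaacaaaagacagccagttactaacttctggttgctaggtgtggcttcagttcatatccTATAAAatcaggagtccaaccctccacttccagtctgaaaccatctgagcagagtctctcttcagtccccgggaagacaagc
S100a13 promoter (chr3:90514185-90514484, plus strand): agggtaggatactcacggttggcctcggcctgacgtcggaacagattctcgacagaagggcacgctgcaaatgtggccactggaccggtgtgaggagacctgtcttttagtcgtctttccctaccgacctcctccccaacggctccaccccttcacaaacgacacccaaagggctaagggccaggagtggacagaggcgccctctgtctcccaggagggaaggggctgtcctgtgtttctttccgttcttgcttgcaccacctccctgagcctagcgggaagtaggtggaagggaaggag

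The MYC/MAX E-box core CACGTG was found in the S100a6 window, 14 bases after the start, and in the S100a11 window at -223. That hexamer occurs in 7.15% of 32851 RefSeq promoter windows of the same length (GRCm38.p6). The PU.1 core GAGGAA was in the windows of S100a4, S100a11 and Anxa1, against 28.3% of all windows. The C/EBP motif TTGCNNAA was in the Anxa1 window alone, against 10.8%, and AP-1 sites TGANTCA were in those of S100a11 and Anxa2, against 7.81%. GGGCGG, the GC box, was found 3 times each in S100a11 and Anxa2 (35.7% of all windows), and TATAAA once each in S100a4, Anxa1 and Anxa2 (13.6%). None of the 6 was in the windows of S100a13 or Anxa5. The RefSeq start of Anxa1 is 273 bases away from the GENCODE start, so its window may miss the start used in these cells. A match is a string of letters and not a measured binding site.

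S100a4, which binds nonmuscle myosin and marks motile cells, was a monocyte gene in both libraries. Classical monocytes carried 1328 CPM [1311 to 1346] in the control and 1734 CPM [1717 to 1750] in the MYC library, and held 80.4% and 82.0% of all S100a4 UMIs. Nonclassical monocytes followed with 818 CPM [757 to 883] and 1239.5 CPM [1145 to 1340]. The third place in the control library was shared by T or NK cells (164 CPM) and plasmacytoid dendritic cells (160.2 CPM), whose intervals overlapped. All other control classes with at least 50 cells lay at or below 42.8 CPM, and the bottom was the granulocyte progenitor with 5.70 CPM, so the top and bottom classes differed 233-fold in control cells and 129-fold in MYC cells.

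**Figure D1:**
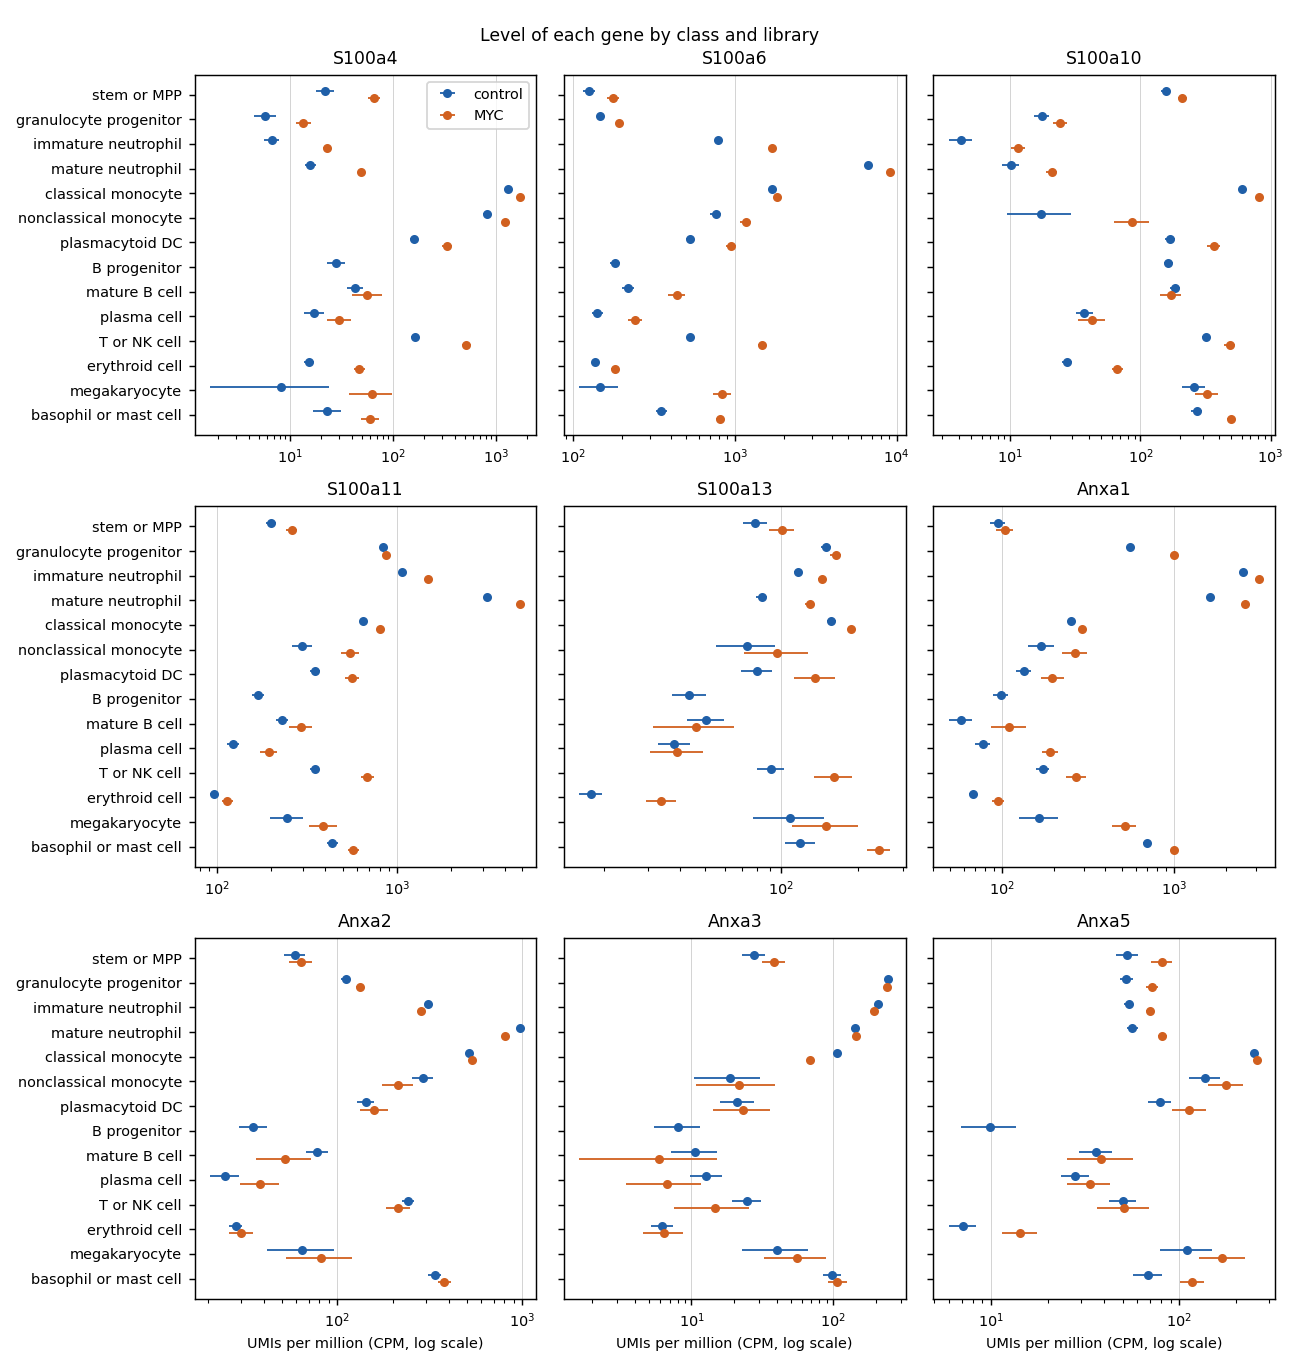
CPM of each of the 9 genes (log axis) in 14 cell classes of the control (blue) and MYC (orange) libraries, with bars for the 95% Poisson interval. S100a4 peaks in classical monocytes (1328 and 1734 CPM), S100a6 and S100a11 in mature neutrophils, and Anxa1 in immature neutrophils.

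Within classical monocytes, S100a4 was higher in cluster 9 (2243 CPM in the control, 3175 in MYC) than in cluster 13 (828 and 1178). The proliferation gene Mki67 was at 103 and 95.3 CPM in cluster 9 and at 1214 and 841 CPM in cluster 13. Cluster 13 also carried more Elane and Mpo than cluster 9, as given below for Anxa3. Its name depended on the resolution. At resolution 0.5 a cluster led by Gria3 and Nrg1, also leading genes of cluster 13, was named plasmacytoid dendritic cell. At resolution 2 a cluster led by Itga1 and Klf4 was named classical monocyte. Another with Gria3 and Nrg1 among its leading genes stayed unnamed, with granulocyte progenitor as its best match. In neutrophils S100a4 was a trace transcript. Immature neutrophils had 6.62 CPM (157 UMIs in 2269 cells) in the control and 22.9 CPM (527 UMIs in 2054 cells) in the MYC library, and mature neutrophils had 15.7 and 49.1 CPM. The MYC values were above the control values in each neutrophil cluster: from 5.89 to 20.2 CPM in cluster 5, from 7.83 to 30.2 in cluster 7 and from 13.2 to 42.4 in cluster 3, the mature cluster that both libraries fill. The log2 ratios were 1.79 [1.53 to 2.06] in immature and 1.64 [1.44 to 1.85] in mature neutrophils, or 1.99 and 1.87 above the all-gene median.

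These low neutrophil levels were compared with what monocyte RNA in the same droplets could carry. The ceiling used here takes the S100a4 level of classical monocytes and multiplies it by the share of a monocyte marker's own monocyte level that is found in the class, with Fn1, F13a1 and Ccr2 used in turn. It assumes that monocyte RNA reaches other droplets in fixed proportions, and the markers were chosen after seeing the data. In immature neutrophils the 3 ceilings came to 111% to 148% of the measured S100a4 level in control cells and 96.0% to 105% in MYC cells, and in mature neutrophils to 107% to 146% and 97.9% to 119%. The measured S100a4 in neutrophils was thus below all 3 ceilings in the control library, and between or near them in the MYC library. The 3 markers moved with it: in mature neutrophils Fn1 went from 13.8 to 21.8 CPM, F13a1 from 13.5 to 18.6 and Ccr2 from 18.2 to 29.4. The summed level of all 8 classical monocyte markers in mature neutrophils did not move that way (1129 CPM in the control, 1048 in MYC), nor did that in immature neutrophils (909 and 886), with all 8 detected. Classical monocytes themselves made up 8.35% of kept control cells and 12.6% of kept MYC cells. The part of monocyte RNA in the S100a4 difference was not tested further.

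The share of cells with at least 1 S100a4 UMI was also compared, after each cell was thinned to 2000 UMIs. In classical monocytes, where most cells had one, it was 83.5% in both libraries, and the clusters behind that share were filled differently. In mature neutrophils it was 3.27% in control cells and 10.0% in MYC cells (6.23% and 22.7% before thinning), and in erythroid cells, a class not known for S100a4, 1.85% and 4.93% (8.68% and 24.6% before thinning). Thinning left out 378 control and 295 MYC mature neutrophils, and 42 and 5 erythroid cells, that had fewer UMIs. Immature neutrophils, with 1.77% and 4.98% (6.43% and 21.6% before thinning), had shares close to the erythroid ones. The share of mature neutrophils [2.72 to 3.90] overlapped the erythroid one [1.12 to 2.87] in the control library and lay above it in the MYC library ([8.996 to 11.2] against [2.72 to 8.13]). Median depths before thinning were 3902 and 5309 UMIs in mature neutrophils and 13886 and 17835 in erythroid cells.

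**Figure D2:**
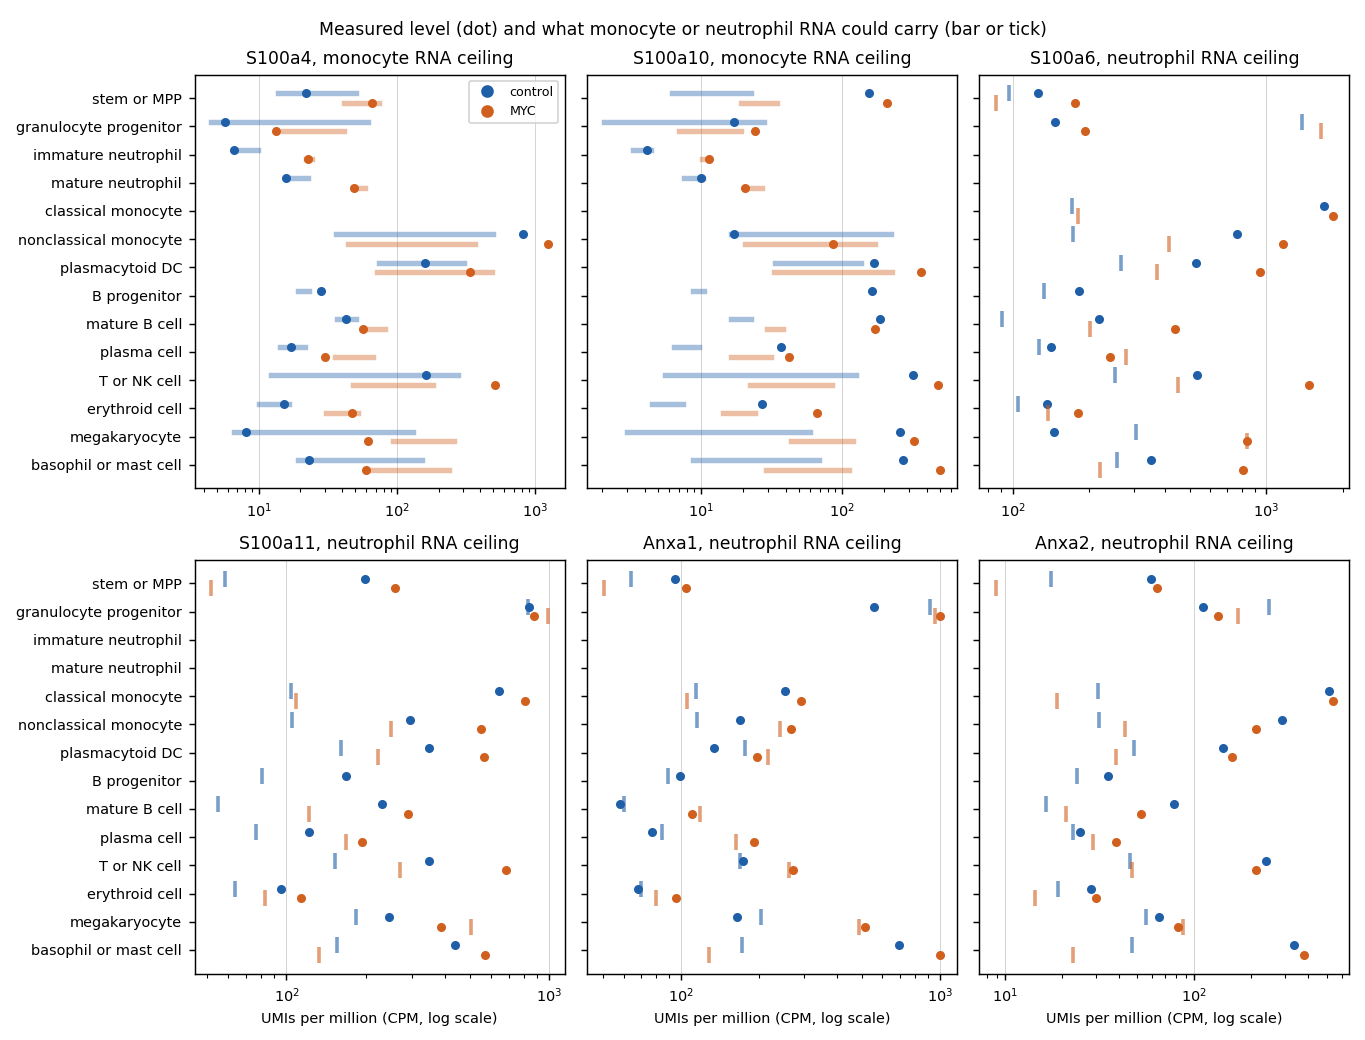
Measured CPM (dots) of S100a4 and S100a10 with the range of the 3 monocyte RNA ceilings (bars), and of S100a6, S100a11, Anxa1 and Anxa2 with the neutrophil RNA ceiling (ticks), by class and library on log axes. S100a4 in neutrophils lies below its monocyte ceilings in the control library and near them in the MYC library, whereas S100a4 in T or NK cells of the MYC library is well above it.

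S100a10, the partner that links annexin A2 into a tetramer and also binds Ahnak, shared the monocyte peak but had a broader range of classes. At resolution 0.5 its top class was instead called plasmacytoid dendritic cell (501 CPM in the control, 712 in MYC). That cluster shared leading genes with monocyte cluster 13. Classical monocytes carried 600.3 CPM [589 to 612] in the control and 809 CPM [798 to 820] in the MYC library, which was 64.2% and 79.3% of its UMIs. Unlike S100a4, it was low in nonclassical monocytes (17.3 CPM from 14 UMIs, and 86.4 CPM from 44 UMIs). T or NK cells had 318 and 485 CPM, basophils or mast cells 270.2 and 500.03 CPM, and stem or multipotent progenitors 156 and 210.0 CPM, all with nonoverlapping intervals between libraries. Monocyte ceilings reached at most 39.6% of the measured level in T or NK cells, 25.5% in basophils or mast cells and 16.5% in stem or multipotent progenitors. Mature B cells had 186 CPM in the control and 171 CPM in MYC, with ceilings of at most 22.6%.

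In neutrophils S100a10 was again at the bottom of the order. Immature neutrophils had 4.13 CPM [3.35 to 5.04] in the control and 11.5 CPM [10.1 to 12.9] in the MYC library, the lowest class in each, 145-fold and 70.6-fold below monocytes. Mature neutrophils had 10.1 CPM [8.60 to 11.7] and 20.7 CPM [18.7 to 22.9]. The monocyte ceilings came to 75.8% to 107% of the measured level in the control neutrophil classes and 89.5% to 131% in those of the MYC library. The log2 ratios of 1.47 [1.13 to 1.82] in immature and 1.04 [0.78 to 1.31] in mature neutrophils belong to levels near these ceilings, and the part of monocyte RNA in them was not tested.

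S100a6, calcyclin, which binds annexins and the ubiquitin ligase adaptor encoded by Cacybp, was highest in mature neutrophils. Their level was 6659.85 CPM [6621 to 6699] in the control and 9067 CPM [9023 to 9111] in the MYC library, and they held 63.5% and 61.5% of its UMIs. The level climbed along the neutrophil series, from 147 CPM in granulocyte progenitors to 787 CPM in immature cells in the control, and from 193 to 1700.3 CPM in the MYC library. In the shared clusters the early immature cluster 5 had 286 CPM in the control and 984 in MYC, the later cluster 7 had 1616 and 3691, and the mature cluster 3 had 4953 and 8019. Each MYC cluster thus stood above the control cluster of the same name, with log2 ratios of 1.78, 1.19 and 0.70. In granulocyte progenitor cluster 4, before them in the series, it was 0.39. Whether those ratios differ beyond the spread between animals was not tested.

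**Figure D3:**
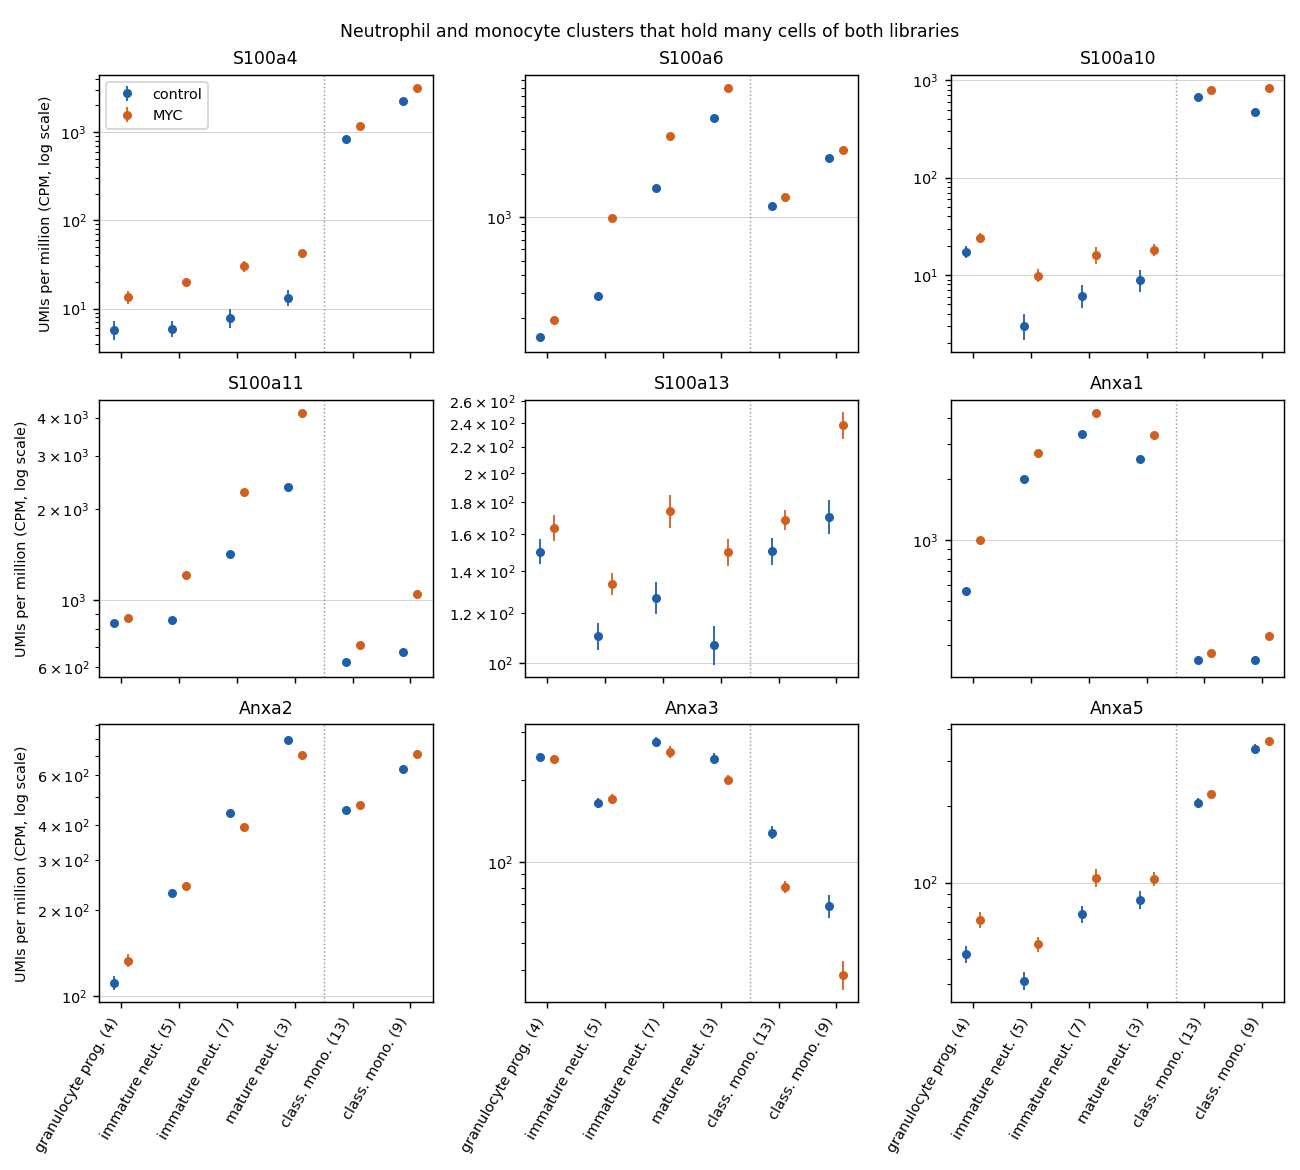
CPM of each gene (log axis) in granulocyte progenitor cluster 4, immature neutrophil clusters 5 and 7, mature neutrophil cluster 3 and monocyte clusters 13 and 9, joined by library (control blue, MYC orange). S100a6 goes from 286 to 4953 CPM between clusters 5 and 3 in the control and from 984 to 8019 CPM in the MYC library.

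Pooled mature neutrophils showed a smaller S100a6 ratio, 0.45 on the log2 scale, which is under the 1.5-fold rule. By cluster it was 0.27 in cluster 0, 0.16 in cluster 1 and 0.70 in cluster 3, and the libraries filled these clusters unequally. Clusters 0 and 1 held 1519 and 1082 control but 207 and 109 MYC cells, and cluster 2 held 74 control and 1285 MYC cells. S100a6 in those clusters ran from 7070 to 8886 CPM in control cells and from 8535 to 10899 in MYC cells. Outside the neutrophils, S100a6 was called higher in T or NK cells (531 and 1466 CPM), in basophils or mast cells (351 to 809 CPM) and in mature B cells (218 to 437 CPM). Here the neutrophil ceiling, computed like the monocyte one but from S100a8, is the value to set beside them. It came to 47.8% of the measured S100a6 in control T or NK cells and 30.6% in those of MYC, to 73.5% and 27.3% in basophils or mast cells, and to 41.6% and 46.2% in mature B cells.

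S100a11, the calcium-binding partner of annexin A1, followed S100a6 in the neutrophil series but began earlier. Granulocyte progenitors already had 840.2 CPM [824 to 857] in the control and 874 CPM [856 to 892] in the MYC library. Immature neutrophils had 1069.8 and 1494 CPM, and mature neutrophils 3179 CPM [3152 to 3206] and 4866 CPM [4834 to 4898]. The libraries were therefore close in progenitors, and MYC was higher by a log2 ratio of 0.48 in immature and 0.61 in mature neutrophils. In the shared clusters 5, 7 and 3 it went from 858 to 1212, from 1420 to 2278 and from 2353 to 4132 CPM. The monocyte ceilings came to at most 0.750% of the S100a11 and 1.59% of the S100a6 measured in immature or mature neutrophils. In classical monocytes S100a11 was 644 CPM in the control and 805 CPM in MYC, and in cluster 9 it was 676 and 1047 CPM.

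S100a13, which takes part in the unconventional secretion of growth factors and interleukin-1 alpha, had the narrowest range of the 9. Its top and bottom classes differed 8.82-fold in control cells and 7.19-fold in MYC cells. Classical monocytes (157 CPM [152 to 163]) and granulocyte progenitors (150.2 CPM) were not told apart by their intervals in the control, and mature neutrophils had 83.7 CPM [79.4 to 88.2]. In the MYC library basophils or mast cells were at the top with 242 CPM [218 to 268], above their control level of 119 CPM [103 to 136], followed by monocytes with 188 CPM. Mature neutrophils had 129 CPM there, a log2 ratio of 0.63 [0.53 to 0.73], but in mature cluster 3 alone the values of 107 and 149.9 CPM gave 0.49, which is under the fold rule.

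Anxa1, which encodes a proresolving annexin released by neutrophils, peaked in immature rather than mature neutrophils. Immature cells had 2506 CPM [2486 to 2526] in the control and 3105 CPM [3082 to 3128] in the MYC library. Mature cells had 1622 CPM [1603 to 1641] and 2597 CPM [2574 to 2621], and granulocyte progenitors 558 CPM [545 to 572] and 999.5 CPM [981 to 1019]. Within mature neutrophils Anxa1 ranged from 607 CPM in cluster 0 to 2515 CPM in cluster 3 in the control, and from 1363 to 3319 CPM in the same clusters of the MYC library. The pooled mature log2 ratio was 0.68, and by cluster it was 1.17 [1.07 to 1.27] in cluster 0, which passed the fold rule, and 0.40 in both cluster 1 and cluster 3, which did not. In granulocyte progenitors, a single cluster, it was 0.84 [0.80 to 0.88], or 1.14 above the all-gene median.

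Beyond the neutrophils, Anxa1 was highest in basophils or mast cells (698 CPM in the control, 1006 in MYC), where the neutrophil ceiling came to 24.5% and 12.8% of the level. In mature B cells it was 57.7 and 109.9 CPM and in T or NK cells 173 and 271 CPM, both called higher in MYC. The mature B cell ratio of Anxa1 turned to -0.35 with doublets kept. The neutrophil ceiling there came to 104% and 107% of the measured Anxa1 in mature B cells and to 97.5% and 96.6% in T or NK cells. The summed level of the 8 mature neutrophil markers moved the same way, from 592 to 877 CPM in mature B cells and, in T or NK cells, from 872 to 1391 CPM. The Anxa1 measured in those lymphocytes was near the neutrophil ceiling in either library, and the part of neutrophil RNA in the difference was not tested further.

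Anxa2, the annexin that S100A10 tethers at the membrane and that binds plasminogen and its activator, was the only member called in none of the 9 classes that had at least 100 cells in each library. Mature neutrophils were at the top with 966 CPM [952 to 981] in the control and 808 CPM [795 to 821] in MYC, followed by classical monocytes with 513 CPM [502 to 524] and 538 CPM [529 to 547]. Its log2 ratio in mature neutrophils was -0.26 and lay below 0 under all 10 alternative settings, from -0.39 to -0.03. In immature neutrophils (309 and 283 CPM) the ratio was -0.13, and it turned above 0 under 3 of the 10 alternatives. The largest departure was in mature B cells, 77.9 to 52.0 CPM with a log2 ratio of -0.58 [-1.14 to -0.06], a fold of 0.668 that just missed the threshold.

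S100a10 and Anxa2, known as a protein complex, were not paired in RNA level over the classes. Over 28 points, 14 classes in each library, the correlation of log2(CPM + 1) was -0.03. Mature neutrophils carried the highest Anxa2 but 10.1 and 20.7 CPM of S100a10, whereas stem or multipotent progenitors had 156 and 210.0 CPM of S100a10 beside 58.8 and 63.6 CPM of Anxa2. By the same measure S100a11 and Anxa1 gave 0.87, S100a6 and Anxa2 0.85, S100a11 and Anxa2 0.84, and S100a6 and S100a11 0.81. These are descriptions, since points of one library share its RNA and its depth.

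**Figure D4:**
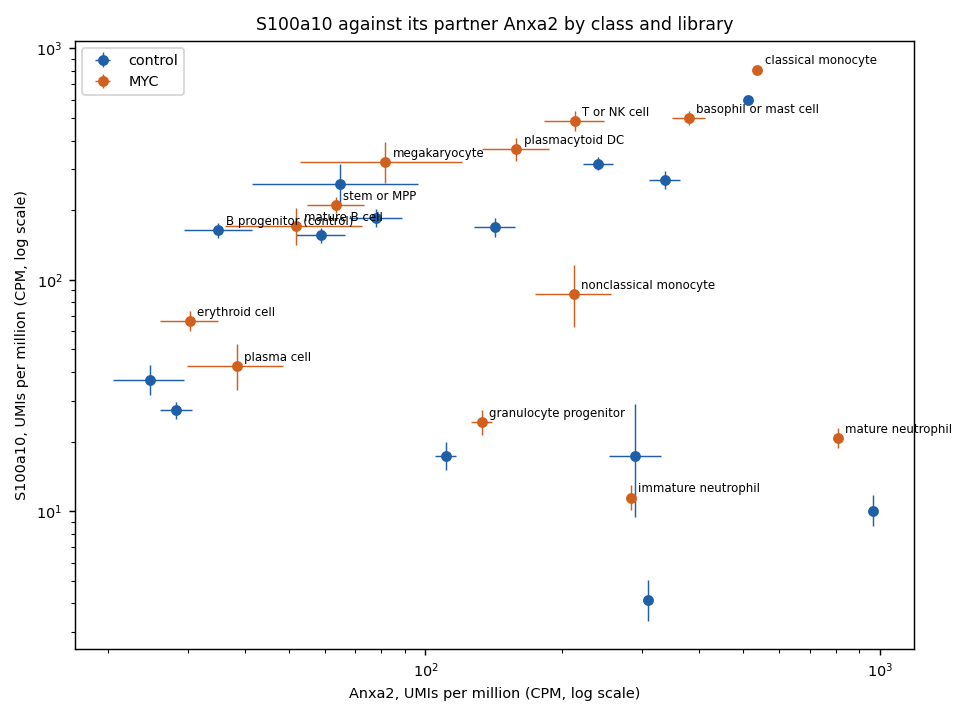
S100a10 against Anxa2, both in CPM on log axes, with 1 point for each class and library (control blue, MYC orange). Neutrophil classes fall at high Anxa2 and low S100a10 (966 and 10.1 CPM in control mature neutrophils), while classical monocytes are high in both (513 and 600.3 CPM in the control).

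Anxa3, an annexin of granulocytes and their progenitors, was highest in granulocyte progenitors with 243 CPM in the control and 239 CPM in MYC. It was 207 and 193 CPM in immature and 143 and 145 CPM in mature neutrophils, with log2 ratios near 0. It was the only member called lower in any of the 9 classes. Classical monocytes had 107 CPM [102 to 112] in the control and 69.0 CPM [65.8 to 72.4] in MYC, a log2 ratio of -0.63 [-0.73 to -0.54], or -0.49 relative to the all-gene median. Both monocyte clusters showed it: cluster 13 went from 128 to 80.9 CPM and cluster 9 from 68.6 to 38.2 CPM. In cluster 13 the granulocyte progenitor genes Elane (1937 to 1132 CPM) and Mpo (2590 to 1304 CPM) were lower in MYC too, whereas in cluster 9 Elane was 45.7 and 44.7 CPM and Mpo 56.0 and 47.6 CPM. The call was lost with doublets kept, with another scaling and at a 2-fold threshold.

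Anxa5, best known as a probe for exposed phosphatidylserine on dying cells, was led by monocytes and macrophage-like cells. Classical monocytes had 251 CPM [243 to 258] in the control and 260.0 CPM [254 to 266] in MYC. The C1q-led cluster had 331 CPM [237 to 451] from 40 UMIs in 21 control cells and 229 CPM [214 to 244] in 624 MYC cells. All neutrophil-lineage classes were lower, with 52.4 to 56.5 CPM in the control and 69.7 to 81.4 CPM in the MYC library. Stem or multipotent progenitors had 53.1 and 81.1 CPM, a log2 ratio of 0.61 [0.35 to 0.88] that was called under 3 of 9 alternatives, and erythroid cells 7.08 and 14.3 CPM.

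The members were then counted class by class, beside the share of all tested genes called the same way. In immature neutrophils, taken whole, 3 of 9 members were called higher (S100a4, S100a6 and S100a10) and 0 lower, against 8.18% of all tested genes called higher and 17.3% lower. In mature neutrophils 5 of 9 were higher (S100a4, S100a10, S100a11, S100a13 and Anxa1) and 0 lower, against 7.89% and 21.6%. There S100a4 and S100a10 kept their call under 10 of 10 alternatives, S100a11 under 9, Anxa1 under 8 and S100a13 under 6. Within the shared mature cluster 3, 4 were higher (S100a4, S100a6, S100a10 and S100a11), against 8.82% of genes tested there called higher and 17.2% lower, with 0 members lower. In mature cluster 0, which holds mostly control cells, 5 were higher (S100a4, S100a10, S100a13, Anxa1 and Anxa5), against 7.79%, and 0 lower, against 15.9%. In mature cluster 1, also mostly control cells, 2 of 8 were higher (S100a4 and Anxa5), against 8.16%, and 0 lower, against 7.73%. S100a6 and S100a11 were called in neither of these clusters, with log2 ratios of 0.27 and 0.38 in cluster 0 and 0.16 and 0.43 in cluster 1. S100a4 was called in each of these 3 mature clusters. The immature clusters gave similar sets, with 3 of 9 higher in cluster 5 (the same 3 as in the whole class, against 6.77%, with 0 lower against 16.7%) and 4 of 9 in cluster 7 (those 3 and S100a11, against 7.51%, with 0 lower against 18.2%). In granulocyte progenitors 2 of 9 were higher (S100a4, from 5.70 to 13.4 CPM, and Anxa1) and 0 lower, against 4.08% and 24.8%. The monocyte ceilings for S100a4 in those progenitors came to 79.7% to 1088% of its control and 112% to 310% of its MYC level. The member median was 0.61 in mature and 0.37 in immature neutrophils and 0.39 in granulocyte progenitors, beside all-gene medians of -0.23, -0.20 and -0.30.

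**Figure D5:**
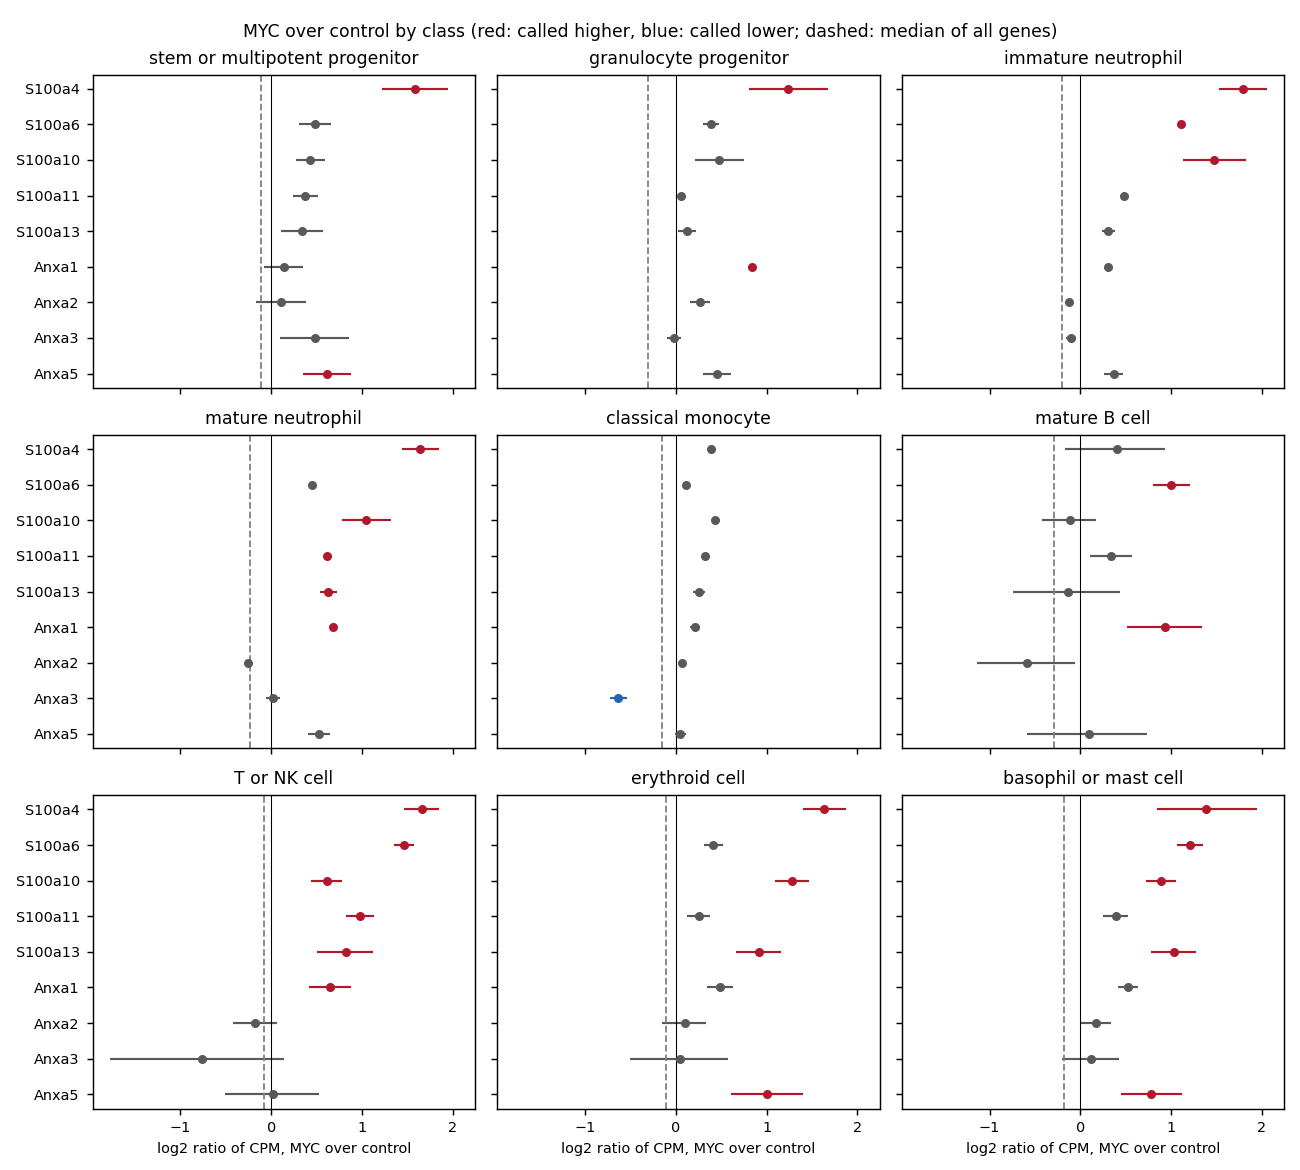
Log2 ratio of MYC over control for each member in 9 classes, with the exact 95% counting interval; red points were called higher, blue points lower, and the dashed line is the median of all tested genes. In classical monocytes only Anxa3 is called (lower, -0.63), while in T or NK cells 6 of 9 members are called higher.

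Classical monocytes, where S100a4 and S100a10 are most abundant, showed small shifts when taken whole. None of the 9 members was called higher, against 8.22% of all tested genes, and 1 was lower (Anxa3), against 16.2%. The log2 ratios were 0.38 [0.36 to 0.41] for S100a4, 0.43 [0.40 to 0.46] for S100a10, 0.32 for S100a11 and 0.11 for S100a6. For S100a4 and S100a6 the pooled value lay below both clusters, which gave 0.50 in cluster 9 and 0.51 in cluster 13 for S100a4 and 0.19 and 0.21 for S100a6. The 2 clusters of the class were filled differently, with 647 control and 651 MYC cells in cluster 9 and 597 and 928 in cluster 13. In cluster 9 alone S100a10 (0.81 [0.74 to 0.87]) and S100a11 (0.63 [0.58 to 0.69]) were called higher, against 13.8% of genes tested there, and Anxa3 lower, against 21.2%. In cluster 13 S100a10 (0.26) and S100a11 (0.19) lay below their pooled values. There Anxa3 alone was called, lower, against 14.1%, and 0 were higher, against 6.01%.

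T or NK cells, a class of 401 control and 149 MYC cells, had the most members called among the classes under the main scaling. Mature neutrophils had more under median-of-ratios scaling and with the 20 most abundant genes left out. Of the 9, 6 were higher in MYC and 0 lower, against 8.3% and 9.09% of all tested genes. With the 20 most abundant genes left out of the totals, 4 were higher and 1 lower. Of all tested genes, 4.69% were then called higher, and 1086 of 6758 were called lower. S100a10 and Anxa1 each kept their call under 7 of 10 alternatives, which leave out the 2-fold threshold that neither reached. S100a4 went from 164 CPM [149 to 179] to 517 CPM [469 to 569], a log2 ratio of 1.66 [1.47 to 1.85], and S100a6 from 531 CPM [504 to 558] to 1466 CPM [1384 to 1551], a ratio of 1.47 [1.36 to 1.58]. S100a11 (0.98), S100a13 (0.82), Anxa1 (0.65) and S100a10 (0.61) were the others. For S100a4 the monocyte ceilings came to 7.52% to 170% of the control level, the upper value from Ccr2, which T cells can express themselves, and to 9.32% to 35.5% of the MYC level. The part of monocyte RNA there was not tested further. For S100a11 the neutrophil ceiling came to 44.0% and 39.5% of the level. In T or NK cells the 8 mature neutrophil markers summed to 872 and 1391 CPM, and the 8 classical monocyte markers to 976 and 610 CPM. After thinning to 2000 UMIs, 18.5% [14.7 to 22.8] of control and 36.9% [28.3 to 46.1] of MYC cells of this class had an S100a4 UMI. The class mixes T and NK cells, and its makeup in each library was not resolved.

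Erythroid cells (1071 control, 289 MYC) had 4 of 9 members called higher and 0 lower, against 13.1% and 18.8%. They were S100a4 (15.2 to 47.2 CPM), S100a10 (27.3 to 66.3), S100a13 (17.9 to 33.6) and Anxa5. The monocyte ceilings for S100a4 came to 66.0% to 109% of the control and 65.0% to 110% of the MYC level, and the monocyte markers were higher in the MYC erythroid cells, with Fn1 going from 8.21 to 20.5 CPM and Ccr2 from 13.1 to 26.1 CPM. In this class the summed monocyte list moved as well, from 102 to 146 CPM. For S100a10 the ceilings were at most 36.5% over the class, but they differed by cluster. In cluster 11, where S100a10 went from 5.99 to 27.2 CPM, they spanned 69.4% to 141% over both libraries, and in cluster 12, where it went from 56.0 to 97.9 CPM, they were at most 15.9%. In cluster 11, which held 792 control and 183 MYC cells, S100a4, S100a10, S100a13 and Anxa5 were called higher, against 11.1% of genes tested there, and Anxa1 lower (75.8 to 37.3 CPM), against 25.3%. In cluster 12 (279 and 106 cells) 6 members were higher, against 7.53%, and 0 lower, against 19.6%. Anxa1 was among the 6, from 58.1 to 142.8 CPM, and S100a4, from 20.01 to 27.8 CPM, was not, so both genes depended on the erythroid cluster. The calprotectin genes moved with Anxa1: S100a8 and S100a9 were called lower in cluster 11, and S100a9 was called higher in cluster 12. The part of neutrophil RNA in the Anxa1 differences was not tested.

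Basophils or mast cells (193 control, 149 MYC) had 5 of 9 members called higher and 0 lower, against 7.99% and 17.7%. S100a6, S100a10 and S100a13 are given above, with log2 ratios of 1.21 [1.07 to 1.35], 0.89 [0.72 to 1.05] and 1.03 [0.78 to 1.28]. Anxa5 went from 68.1 to 117 CPM, and S100a4 from 23.1 to 60.1 CPM, the last with monocyte ceilings of 83.8% to 660% in the control and 104% to 399% in MYC. Stem or multipotent progenitors (195 and 168 cells) had 2 of 9 called higher and 0 lower, against 5.64% and 9.9%, namely S100a4 (21.9 to 65.6 CPM, ratio 1.58 [1.22 to 1.95]) and Anxa5. The S100a4 ceilings of the progenitors, 63.0% to 231% in the control and 63.0% to 113% in MYC, included the measured level. In mature B cells 2 of 8 tested members were higher (S100a6, whose CPM values are given above, and Anxa1, with a log2 ratio of 0.93 that turned to -0.35 with doublets kept) and 0 lower, against 4.99% and 18% of all tested genes.

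The C1q-led macrophage-like cluster held mostly MYC cells, with 21 control cells (0.141% of those kept) and 624 MYC cells (4.98%), so no ratio was called there. Its MYC cells had 363 CPM [345 to 383] of S100a4, 579 CPM of S100a6, 179 CPM of S100a11, 162 CPM of Anxa2 and 42.6 CPM of S100a10. The monocyte ceilings came to 22.6% to 26.1% of that S100a4 level and to 89.9% to 104% of the S100a10 level. In the 21 control cells S100a4 was 133 CPM [75.8 to 215] from 16 UMIs. A cluster mostly of 1 library may reflect that library rather than a cell type.

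Some clusters without a class name also held the 9 genes. Cluster 22 (243 control and 184 MYC cells), led by the MHC class II genes H2-Eb1 and H2-Aa and the mannose receptor gene Mrc1, had 1127 CPM of S100a4 in the control and 1752 in MYC. That lay above nonclassical monocytes in both libraries, and the MYC value was close to the 1734 CPM of classical monocytes. At resolution 2 a cluster led by H2-Eb1 and Cd209a was named conventional dendritic cell. S100a4, S100a6 (924 to 1504 CPM), S100a10 (228 to 416 CPM) and S100a11 (368 to 691 CPM) were called higher in cluster 22, against 14.7% of the genes tested, and Anxa3 lower (50.4 to 21.1 CPM), against 16.2%. Elane went from 229.8 to 43.8 CPM in the same cluster.

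Cluster 15 (2444 control and 2562 MYC cells) had a median of 746 and 802 UMIs a cell and was left without a name. Its S100a4 was 146 CPM in the control and 416 CPM in MYC, its S100a10 was 99.0 and 196 CPM, and the monocyte ceilings for S100a4 came to 115% to 142% and 115% to 141% of its level. S100a4, S100a6, S100a10 and Anxa5 were called higher there, against 4.83% of the genes tested, and 0 lower, against 18.3%. Cluster 6 (410 and 345 cells), with a median of 4000 and 1566 UMIs a cell, was led by Tmcc2 and Slfn14. There 5 of 9 members were higher, against 40.8%, and 0 lower, against 7.62%, and the median of all genes tested in it was 0.51, opposite in sign to the classes compared. The 5 were S100a4 (34.4 to 113 CPM), S100a6 (277 to 857), S100a11 (272 to 506), Anxa1 (218 to 697) and Anxa2 (79.4 to 123.9). The neutrophil ceilings there came to 135% and 125% of the S100a6 level and to 114.5% and 89.8% of the Anxa1 level. Cluster 16 (92 and 105 cells), led by the stromal genes Cxcl12 and Igfbp5, had 85.9 and 456 CPM of S100a4.

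The scaling moved the balance of higher and lower calls among all genes, and its direction depended on the scaling. When libraries were scaled within each class by the median of gene ratios, the share of higher calls among all called genes went from 26.8% to 56.1% in mature neutrophils, from 32.2% to 68.0% in immature neutrophils, from 33.7% to 57.8% in classical monocytes and from 47.7% to 61.1% in T or NK cells. It went from 14.2% to 67.1% in granulocyte progenitors, 21.7% to 63.8% in mature B cells, 41.0% to 55.0% in erythroid cells, 36.3% to 62.4% in stem or multipotent progenitors and 31.1% to 62.0% in basophils or mast cells. Members called higher were then 7 in mature neutrophils, against 14.4% of all tested genes, 4 in immature neutrophils (14.7%), 5 in granulocyte progenitors (14%) and 0 in classical monocytes (13.6%). In T or NK cells the count was 6, against 10.5%. With the 20 most abundant genes left out of the totals instead, the share of higher calls went from 47.7% to 22.6% in T or NK cells, from 33.7% to 19.5% in classical monocytes and from 36.3% to 15.9% in stem or multipotent progenitors. It went from 41.0% to 24.2% in erythroid cells and from 31.1% to 20.3% in basophils or mast cells, and up from 26.8% to 37.1% in mature neutrophils. Members called higher were then 4 in T or NK cells, 0 in classical monocytes, 1 in stem or multipotent progenitors, 4 in erythroid cells, 5 in basophils or mast cells and 6 in mature neutrophils, against 4.69%, 5.5%, 3.22%, 8.67%, 5.76% and 9.94% of all tested genes.

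Other S100 genes, annexins and binding partners, from lists chosen for their roles, were counted in the same way. Of 12 other S100 genes at most 4 had enough UMIs in a class, and S100a1, whose start lies 42 bp from that of S100a13, was the one called higher in most of them: in mature neutrophils with a log2 ratio of 1.14, in T or NK cells from 10.4 to 24.3 CPM, in classical monocytes from 46.3 to 75.7 and in basophils or mast cells from 19.2 to 41.2. The shares of all tested genes called higher there were 7.89%, 8.3%, 8.22% and 7.99%. S100a8 and S100a9, the calprotectin subunits, stood at 94112 and 109623 CPM in control mature neutrophils and at 105862 and 158944 CPM in those of MYC, neither called higher. Elsewhere S100a9 was called higher in mature B cells, against 4.99% of all tested genes. S100a8, on which the neutrophil ceilings rest, was called lower in stem or multipotent progenitors and basophils or mast cells, against 9.9% and 17.7%. Among 8 other annexins, Anxa6 was called lower in classical monocytes (137 to 80.3 CPM), granulocyte progenitors (17.8 to 10.7) and immature neutrophils (7.25 to 3.78), against 16.2%, 24.8% and 17.3%. Anxa4 was called higher in granulocyte progenitors and erythroid cells, against 4.08% and 13.1%, and Anxa11 lower in mature B cells, against 18%. In mature neutrophils 0 of 4 tested were called, against 7.89% of all tested genes called higher and 21.6% lower. Among 14 partners and receptors, Ahnak, the scaffold bound by S100A10, was lower in classical monocytes (908 to 567 CPM) and mature B cells (245 to 156 CPM), against 16.2% and 18%. It was higher in granulocyte progenitors (3.55 to 7.65 CPM) and basophils or mast cells (21.4 to 42.5 CPM), against 4.08% and 7.99%. Fpr2, the receptor for annexin A1, was at 782 CPM in control and 523 CPM in MYC mature neutrophils, a ratio of -0.58 that just missed the threshold. It was called lower in granulocyte progenitors (-0.77), erythroid cells (-1.14) and basophils or mast cells (-1.13), against 24.8%, 18.8% and 17.7% of all tested genes. Fpr2 was also called lower in mature cluster 3, against 17.2%, but not in mature clusters 0 and 1. Its exons overlap those of Fpr3. Of the 10 partners tested in mature neutrophils, 1 was called lower (Pla2g4a, 24.9 to 15.8 CPM) and 0 higher, against 21.6% and 7.89% of all tested genes. In immature neutrophils 0 of 10 were called, against 8.18% higher and 17.3% lower.

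The genes most like each member over the 28 class and library points, by Pearson's r of log2(CPM + 1) among 8692 candidates were as follows. S100a4 was nearest to Mcub (0.94), Olfm1 (0.89) and Shtn1 (0.89), and S100a10 to Crip1 (0.82), Slc25a4 (0.81) and Hspb11 (0.80). S100a6 was nearest to Pabpc1l (0.87), Pirb (0.85) and Bmx (0.85), S100a11 to genes that include Cebpd and Prdx5 (0.91 each), and S100a13 to Pgam1 (0.90), Mapkapk3 (0.89) and Lamtor4 (0.87). Anxa1 had Ltb4r1 (0.94), the neutrophil marker Padi4 (0.92) and Prdx5 (0.92), and Anxa2 had Cln3 (0.93), Myo1f (0.92) and Arhgap9 (0.92). Anxa3 had Hk3 (0.92), Ltb4r1 (0.92) and Agpat2 (0.91), and Anxa5 had Cyfip1 (0.85), Pitpna (0.84) and Hexa (0.83). These likenesses describe 2 libraries and carry no p-value.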

How the data were processed

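The values are UMI counts per gene and barcode, whole numbers deposited by the authors; per the file headers, Cell Ranger 6.0.0 produced them. Libraries were prepared with a 10x 3′ kit, version 2, per the labels' protocols. Builds GRCm38 and mm10 and Seurat are listed in the submitters' processing notes, while the annotation and the strand setting of the counting are not given in the sources used here. Coordinates come from GENCODE vM21 and promoters from RefSeq (GRCm38.p6).

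Barcodes with at least 500 UMIs, at least 200 genes and at most 10% mitochondrial UMIs were kept. Scrublet, within scanpy 1.11.5, marked 558 control and 356 MYC doublets at a score of 0.2; that threshold was set after the automatic one marked 0 in the MYC library. Cells were scaled to 10000 UMIs and clustered over both libraries without batch correction (2000 variable genes, 30 components, 15 neighbours, Leiden resolution 1, igraph 0.11.9). Clusters were named from fixed markers of 19 types where at least 3 markers were detected. Clusters whose median UMI count was under 1/3 of their library's stayed unnamed, a rule set after seeing the data. No correction for free RNA was made.

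Counts were summed by class and library. Intervals (95%) are exact Poisson, Clopper-Pearson or conditional binomial (scipy 1.17.1). Classes entered the order of levels, in CPM, with at least 50 cells, and ratios with 100 cells in each library; the 21 control cells of the C1q-led cluster are given outside that order. The call rule, tested on simulated data, recovered 96.4% of 195 genes changed 2-fold in mature neutrophils and called 0.747% of the unchanged ones. In classical monocytes it recovered 98.4% of 193 and called 0.537%. The simulated counts held counting error only. They lacked any spread between animals, change in cell makeup or free RNA. The rates therefore do not carry over to the real calls.

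All 9 members are named whatever their values, any member of the 3 lists (12 other S100 genes, 8 other annexins, 14 partners and receptors) may be named, and for each member the 3 genes of highest correlation, of which 1 is not reported here. The monocyte ceilings from Fn1, F13a1 and Ccr2 were chosen after seeing the data, as were the cluster values. The members and lists were chosen with earlier results of these data known. Alternatives changed the cell filters, doublets, resolution, naming, scaling, fold and UMI minimum, and left out the 20 most abundant genes. Where a gene is said to hold under some of 10 or 9 alternatives, the 2-fold threshold is not among them.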

Additional observations from a re-analysis of the deposited data

How the results depend on the processing

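No paired analysis was possible because each group is 1 library with no replicate number, and for the same reason no replicate could be left out. Of the counts of members called, 169 moved by no more than 1.5 times and 29 moved further. Of the members' log2 ratios in single classes, 544 moved by less than their counting interval, 256 moved further and 1 called ratio reversed: Anxa1 in mature B cells, at -0.35 with doublets kept. Of the 51 ratios that were not called, 18 changed sign under at least 1 alternative, among them S100a4 (0.40, to -0.39) and Anxa2 (-0.58, to 0.10) in mature B cells and Anxa3 in T or NK cells (-0.76, to 0.34). The share of all tested genes called was recorded only for the main setting, median-of-ratios scaling, totals without the 20 most abundant genes, and single clusters. Counts given below without such a share cannot be read against all genes. At a 2-fold threshold the members called higher were 1 in granulocyte progenitors, 2 in mature neutrophils, 0 in mature B cells, 2 in T or NK cells, 1 in stem or multipotent progenitors and 3 in basophils or mast cells, and 0 were lower in classical monocytes. With median-of-ratios scaling they were 5 in granulocyte progenitors (against 14% of all tested genes), 4 in mature B cells (11.4%) and 4 in stem or multipotent progenitors (9.56%). With that scaling 0 were lower in classical monocytes, against 1089 of 10998 tested genes. With cells named from markers alone they were 4 in granulocyte progenitors, 1 in mature B cells and 8 in erythroid cells. With at least 1000 UMIs and 500 genes they were 3 in mature neutrophils and 1 in stem or multipotent progenitors. With at most 5% mitochondrial UMIs they were 1 in classical monocytes and 1 in stem or multipotent progenitors. With doublets kept, 4 were higher in stem or multipotent progenitors, 0 lower in classical monocytes, 1 lower in mature B cells and 1 lower in T or NK cells. At resolution 0.5, 3 were higher in classical monocytes and 1 lower in mature B cells, and at resolution 2, 1 was higher in stem or multipotent progenitors. In cluster 9 alone, chosen after seeing the data, 2 were higher, against 13.8% of the genes tested there. Without the 20 most abundant genes, 1 was higher in stem or multipotent progenitors (against 3.22% of all tested genes). Then 1 was lower in mature B cells, against 1551 of 6238 tested genes, and 1 in T or NK cells, against 1086 of 6758. The cause was not tested. Mature B cells and stem or multipotent progenitors had fewer than 100 cells in 1 library under 1 setting each, which gives no value. The class of highest level was the same in 6 of 6 alternatives, except for Anxa3 in MYC (5), S100a10 in both libraries (5) and S100a13 in the control (4). Depth limits the small classes and low levels, and S100a4 and S100a10 in neutrophils were also near or below the monocyte RNA ceilings.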
